A study of Mus musculus with 4 samples.

Results

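The genes Cd207, Epcam, Cdh1, Cldn1, Ctnnd2, Efna1, Mfge8, H2-M2 and Osbp2, 9 of the 31053 genes counted, were followed across the immune cells of mouse skin. They were selected on their level over all immune cells, which was lower in skin tumor than in control skin, so that difference, and their level in Langerhans cells (LC), is given as a description without a test. CD45+ cells without DAPI stain were sorted from collagenase-digested skin, and droplet sequencing of 3' RNA gave 1 library for each of 2 C57/BL6 control skins of uninoculated mice and 2 skin tumors. The tumors were excised 2 weeks after cells of the line 2323 had been injected into the flank of C57/BL6 mice aged 8 to 10 weeks at injection. The line came from a tumor of a mouse with transgenes driven by the keratin 14 promoter, and as a single line was used, the tumors are 2 growths of 1 source. No tumor-free skin of injected mice was analysed here, so injection and tumor cannot be told apart. The cells were placed under the skin, and the amount of epidermis in each excised sample was not measured. A difference in the amount of epidermis and the tumor therefore cannot be told apart either.

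LC are the antigen-presenting cells that live between the keratinocytes of the epidermis. They carry langerin, the product of Cd207, and hold to their neighbours through E-cadherin (Cdh1). They also express other junction genes that are better known from epithelia, among them Epcam and the gene of claudin-1 (Cldn1). Loosening of the contacts with their neighbours is a known step when LC leave the epidermis for the lymph node. Dendritic epidermal T cells (DETC), the γδ T cells of the mouse epidermis, share that place.

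After filters on cells and removal of doublets, the libraries held 2860 and 2938 immune cells from control skin and 4535 and 1888 from skin tumor, with a median of 10220.5 to 12644.5 unique molecular identifiers (UMIs) per cell. Between 7 and 13 cell barcodes of a library also occurred in another library. Cell types were assigned by gates on summed marker UMIs per 10000 UMIs of a cell. An LC had at least 30 of the MHC II genes, at least 5 of Cd207, fewer than 12 of C1q and fewer than 5 of CD3 and T cell receptor genes, and passed none of the gates set before it, among them those of type 1 and mature dendritic cells. The thresholds were set after the data were seen. This gave 415 and 371 LC in control skin, 0 in skin tumor 1 and 4 in skin tumor 2. The gated LC of control skin had the LC genes Il1r2 (22.9 and 21.1 UMIs per 10000), Ltc4s (3.71 and 3.20), Ly75 (3.49 and 3.49), Csf1r (3.58 and 4.57) and Cd24a (1.66 and 1.81). Not all of these set LC apart. Csf1r stood at 3.12 and 3.52 in control macrophages without H2-M2 UMIs, and Ly75 at 3.34 and 1.98 in type 1 dendritic cells. Cells with markers of both T cells and antigen-presenting cells, called two-lineage here, made up 8.18 and 9.43% of immune cells in control skin and 0.375 and 5.40% in skin tumor. Between 19.2 and 22.2% of immune cells of a library fell in no gate.

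The members lie on 8 chromosomes of GRCm38 and all are annotated as protein coding. Cd207 spans chr6:83671215-83677857 on the minus strand, Epcam chr17:87635979-87651129 on the plus strand, Cdh1 chr8:106603351-106670246 on the plus strand and Cldn1 chr16:26356642-26371841 on the minus strand. Ctnnd2 spans chr15:30172593-31029341 on the plus strand, Efna1 chr3:89271733-89281142 and Mfge8 chr7:79133768-79149060 on the minus strand. H2-M2 spans chr17:37480851-37483552 and Osbp2 chr11:3703731-3863903, both on the minus strand. Since the members share a cell type, the 250 bases before their transcription starts in RefSeq (GRCm38.p6) were searched on both strands for the letters of 4 motifs. Windows were matched for 8 members (11 windows, several starts for some genes), not for Cdh1. The AP-1 letters TGANTCA were found in 6.75% of the 32851 windows of all genes and in 1 member, Cd207, directly before the start. The E-box letters CACCTG were in 17.2% of all windows and in 3 members, Epcam (both strands), H2-M2 and Osbp2. The RUNX letters TGTGGT were in 14% of all windows and in 1 member, Mfge8. The PU.1 letters GAGGAAGT were in 2.44% of all windows and in no member. The letters shared by the members were thus few, and the windows of Cd207 (chr6:83677858-83678107, minus strand), Epcam (chr17:87635729-87635978, plus strand) and Mfge8 (chr7:79149061-79149310, minus strand) are shown, 5' to 3' along the gene, as 1 example of each motif found, with the matches in capitals.
Cd207: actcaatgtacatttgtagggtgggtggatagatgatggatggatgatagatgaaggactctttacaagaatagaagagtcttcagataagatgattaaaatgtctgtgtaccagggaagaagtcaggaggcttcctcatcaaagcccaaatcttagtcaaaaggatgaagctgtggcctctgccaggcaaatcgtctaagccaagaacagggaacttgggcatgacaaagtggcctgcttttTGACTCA
Epcam: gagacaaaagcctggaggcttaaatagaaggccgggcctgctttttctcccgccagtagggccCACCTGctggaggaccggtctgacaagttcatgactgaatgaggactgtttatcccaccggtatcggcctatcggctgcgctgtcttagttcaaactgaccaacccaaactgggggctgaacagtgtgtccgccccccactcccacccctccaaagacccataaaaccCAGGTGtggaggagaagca
Mfge8: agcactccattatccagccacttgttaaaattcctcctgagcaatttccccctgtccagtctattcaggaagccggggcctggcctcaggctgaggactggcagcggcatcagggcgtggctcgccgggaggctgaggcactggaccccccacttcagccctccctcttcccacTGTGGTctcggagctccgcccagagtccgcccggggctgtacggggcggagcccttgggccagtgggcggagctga
A match of letters is a description of the sequence and not a site of binding.

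Langerin is the C-type lectin that builds the Birbeck granules of LC. Gated LC of control skin held 59.8 and 46.1 UMIs of Cd207 per 10000 (52.9 ± 9.70, SD, n = 2 libraries), a level that the gate itself required to be high. The next of the gated immune types were mature dendritic cells (mDC) with 22.2 ± 4.05, conventional type 1 dendritic cells (cDC1) with 9.78 ± 4.26 and C1q-positive macrophages with 6.93 ± 3.01. The step from LC to mDC and from mDC to cDC1 was larger than the spread of the 2 libraries, while cDC1 and macrophages overlapped. The sums of mDC and macrophages were carried by some of the cells. The median mDC held 0.541 and 0 UMIs of Cd207 per 10000 and the median macrophage 0.429 and 0, against 43.8 and 35.4 for the median LC. In cDC1 the gene was found in most cells. The median cDC1 held 4.38 and 5.11, and 87.1 and 79.2% of cDC1 had a Cd207 UMI. T cells, which should lack the gene, held 0.307 and 0.217 UMIs per 10000, and 24.6 and 18.1% of them had a Cd207 UMI, a share read here as background, whose source was not tested. Of all Cd207 UMIs in immune cells, 72.9 and 70.1% lay in gated LC and 20.2 and 20.4% in two-lineage cells.

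Epcam encodes a homophilic adhesion protein of epithelia. Its level in control LC was 5.53 and 4.91 UMIs per 10000, and 86.7 and 83.6% of LC had an Epcam UMI, against 5.93 and 11.4% of T cells. The median depth was 16131 and 16122 UMIs in LC and 9157 and 9625 in T cells, and after thinning each cell to 1000 UMIs the shares of LC were 37.8 and 33.7%, against 0.847 and 2.01% of T cells. The second immune type was cDC1 with 2.72 and 1.21, below both LC values. In cDC1 the ratio of Epcam to Cd207 was 2.29 and 1.68 times that of LC. That ratio was 0.994 and 1.62 times that of LC in macrophages and 1.07 and 0.968 times in two-lineage cells.

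Cldn1, the tight junction claudin of the epidermis, stood at 10.4 and 9.44 UMIs per 10000 in LC, and was found in 96.1 and 96.2% of them against 4.52 and 2.68% of T cells. After thinning, 60.5 and 59.6% of LC had a UMI, against 0.282 and 0% of T cells. Both mDC (2.14 and 3.23) and cDC1 (2.36 and 2.13) were well below LC and overlapped each other. LC held 70.4 and 68.0% of the Cldn1 UMIs. Cldn1 was the member whose profile across types was nearest to that of Cd207, with Pearson's r = 0.981 over 10 types.

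Cdh1 encodes E-cadherin, the core of the adherens junction. LC held 1.52 and 1.89 UMIs per 10000, DETC 1.00 and 1.00, and γδT cells with the genes of type 17 cells 0.879 and 0.770, so that LC, DETC and γδT cells did not overlap in this order. A Cdh1 UMI was found in 68.4 and 76.3% of LC and in 16.7 and 14.1% of T cells, or in 13.3 and 15.1% against 1.69 and 2.01% after thinning. Since DETC were more numerous (624 and 720 cells), LC held only 32.3 and 36.2% of the Cdh1 UMIs, while DETC held 22.9 and 24.4%. Among all gated cells, the 29 and 49 keratinocyte-like cells left out of the immune cells had the highest level, 6.43 and 10.0.

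Ctnnd2 encodes delta-catenin, an armadillo-repeat protein that binds the tail of cadherins. It was the exception among the members. DETC had 7.80 and 8.64 UMIs per 10000 and γδT cells 5.87 and 3.62, against 3.94 and 4.40 in LC. DETC lay above LC in both libraries, and γδT cells and LC overlapped. Of the Ctnnd2 UMIs, 44.0 and 46.7% were in DETC and 20.6 and 18.7% in LC. In DETC, Ctnnd2 stood 367 and 433 times, and Cdh1 122 and 117 times, above what the Cd207 level of DETC and the gene ratios of LC give, whereas Cldn1 stood at 1.36 and 1.25 times. A UMI of Ctnnd2 was found in 91.8 and 91.4% of LC, and in 7.34 and 10.1% of T cells. After thinning, it was found in 32.3 and 35.6% of LC, 44.6 and 48.6% of DETC and 1.98 and 1.34% of T cells.

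**Figure D1:**
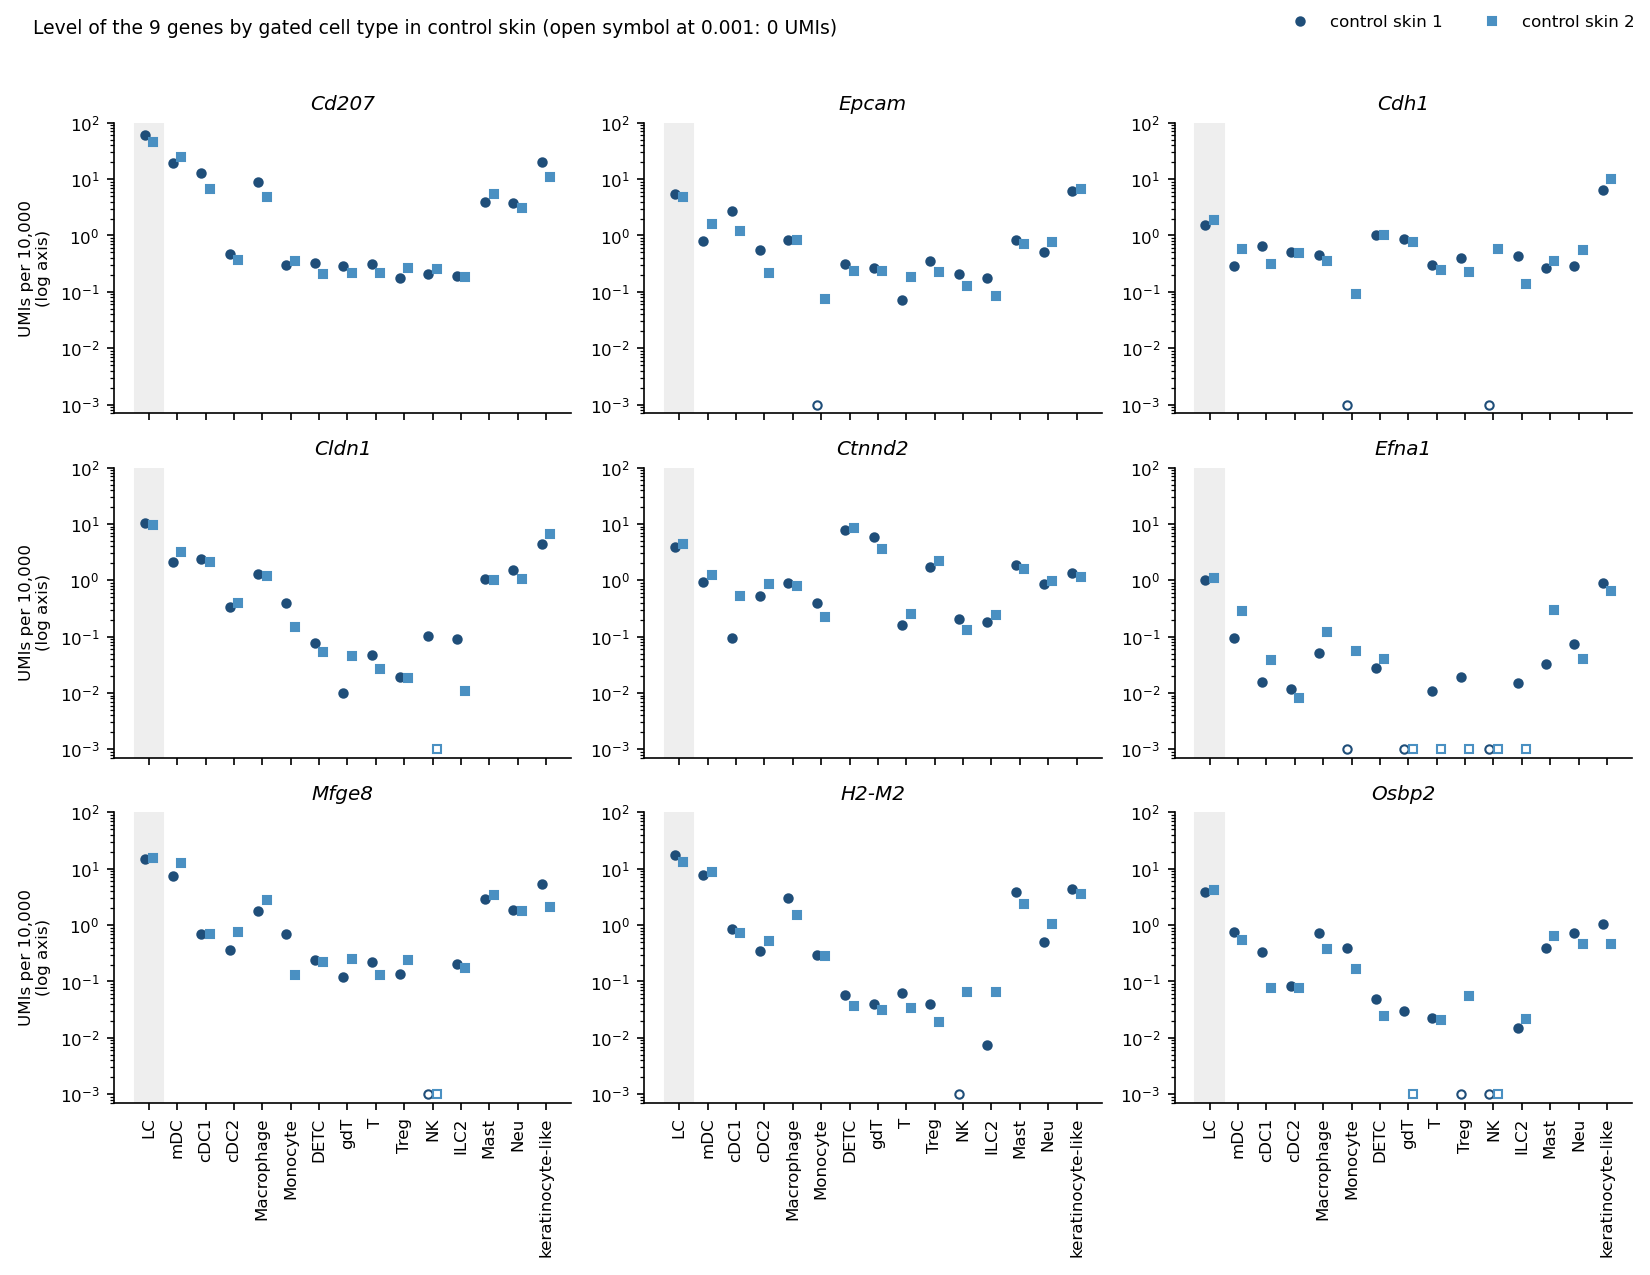
Level of each of the 9 genes (UMIs per 10000 UMIs of the gated cells, log axis) in the gated types of control skin, 1 point per library, with LC shaded. In 8 panels LC are the highest immune type, and in that of Ctnnd2 the DETC points, at 7.80 and 8.64, lie above the LC points. Open symbols are types with 0 UMIs.

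Efna1 encodes ephrin-A1, a membrane-anchored ligand of Eph receptors. Its level was 0.992 and 1.12 UMIs per 10000 in LC, and the next of the gated immune types, mDC (0.0962 and 0.286) and mast cells (0.0326 and 0.299), overlapped each other. A UMI was found in 46.7 and 51.2% of LC and in 1.13 and 0% of T cells, or in 6.75 and 10.8% and in 0 and 0% after thinning. LC held 75.1 and 65.6% of the Efna1 UMIs.

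Mfge8 encodes a secreted bridge between phosphatidylserine on dying cells and integrins of the cells that take them up. LC held 14.7 and 15.6 UMIs per 10000 and mDC 7.55 and 12.8. The mDC value came from few cells: of 17 mDC in each control library, the 6 that also reached the Cd207 level of the LC gate carried most of it, and without them mDC held 0.668 and 0.281. Mast cells had 3.15 on average. A UMI was found in 93.7 and 95.7% of LC and 17.2 and 11.4% of T cells, and after thinning in 59.5 and 65.8% against 3.11 and 0.671%.

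H2-M2, a nonclassical MHC class I gene of the M region, showed the same order. LC held 17.7 and 13.1 UMIs per 10000 and mDC 7.79 and 8.90, or 1.30 and 0 without the 6 Cd207-positive mDC. The 71 and 183 macrophages of control skin held 2.97 and 1.52. Without the 14 and 24 macrophages at the Cd207 level of the LC gate they held 0.637 and 0.158, and the 30 and 105 macrophages without any Cd207 UMI held 0.262 and 0.0443. A UMI of H2-M2 was found in 96.6 and 93.5% of LC and 5.65 and 3.36% of T cells (70.6 and 64.4%, and 0.847 and 0.671%, after thinning). The profiles of Mfge8 and H2-M2 across the 10 types had r = 0.990, while Spearman's rho across single LC was 0.127 and 0.198. In the 368 and 323 deepest LC this rho was 0.0411 and 0.122. Counting error in single cells lowers rho, and its part was not tested.

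Osbp2 encodes an oxysterol-binding protein, of a family that moves sterols and other lipids between membranes. Its level was 3.89 and 4.27 UMIs per 10000 in LC and 0.644 ± 0.143 in mDC, with a UMI in 4 and 3 of 17 cells. Neutrophils (0.596) and macrophages (0.558) overlapped with mDC. A UMI was found in 77.8 and 79.2% of LC and in 1.41 and 2.01% of T cells, and after thinning in 29.6 and 31.3% against 0 and 0%. LC held 70.9 and 71.0% of its UMIs.

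**Figure D2:**
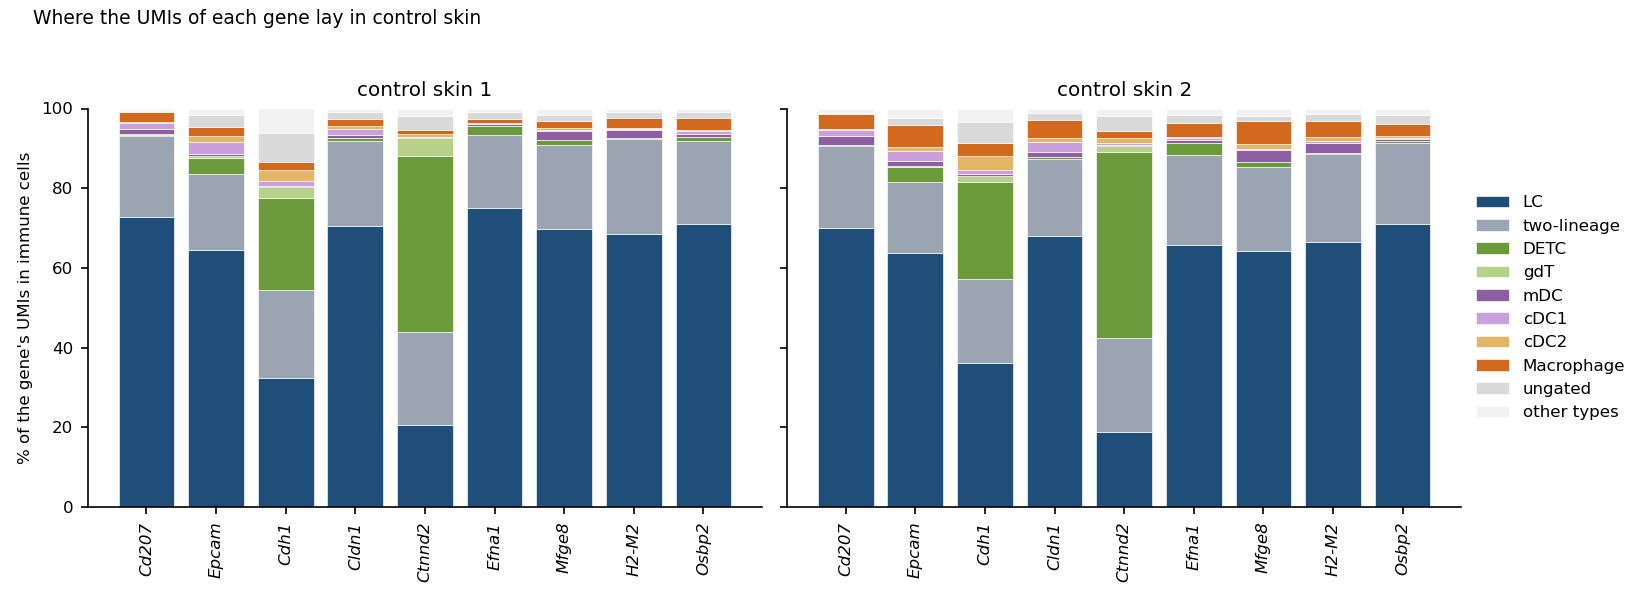
Share of each gene's UMIs (% of its UMIs in the immune cells of a library) by gated type, for both control skins. The dark bars of LC reach from 63.6 to 75.1% for Cd207, Epcam, Cldn1, Efna1, Mfge8, H2-M2 and Osbp2, 32.3 and 36.2% for Cdh1, and 20.6 and 18.7% for Ctnnd2, where the green part of DETC is larger.

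The keratinocyte-like cells of control skin also held Epcam at 6.23 and 6.69 UMIs per 10000, above both LC values. They held Cldn1 (4.40 and 6.50) and Efna1 (0.910 and 0.636) at levels below LC and above mDC, and also the LC gene Cd207, at 20.5 and 10.9. Keratin and other keratinocyte genes, summed over a list of 12, stood at 0.887 and 0.751 UMIs per 10000 over the immune cells of control skin and at 0.148 and 0.230 in skin tumor. In gated LC the sum was 0.334 and 0.340, with Krt14 at 0.0308 and 0.0216. The part of keratinocyte RNA in the levels of Cdh1, Epcam and Cldn1 in immune cells was not tested.

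Within LC, most members were found together. The median LC had UMIs of 8 of the 9 genes in both libraries, all 9 were found in 28.7 and 35.6% of LC, and at least 6 in 91.8 and 91.4%. Cd207 is among the genes found in every LC, since the gate required it. The rank correlations of their levels across single LC were nevertheless mostly low. Over the 36 pairs of members, Spearman's rho of the levels across the 415 and 371 cells had a median of 0.118 and 0.145, with a range from -0.156 to 0.466 in control skin 1 and from -0.174 to 0.498 in control skin 2. Cells of 1 library share its depth and free RNA, so these are descriptions. Counting error at few UMIs per cell lowers rho, and Efna1 had a UMI in only 46.7 and 51.2% of LC. In the 368 and 323 deepest LC the median rho was 0.0513 and 0.130, lower than over all LC. The part of counting error was not tested. The highest pair of both libraries was Cd207 and Mfge8, at 0.466 and 0.498, and Cd207 and Cldn1 had 0.361 and 0.459.

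LC with cell cycle genes (16 and 24 cells, at least 8 UMIs per 10000 of Mki67, Top2a, Birc5 and Stmn1) held more Cdh1 than the other LC, 3.22 against 1.40 UMIs per 10000 in control skin 1 and 2.96 against 1.77 in control skin 2. They held less Mfge8 (9.52 against 15.1, and 9.16 against 16.3), H2-M2 (13.8 against 18.0, and 8.52 against 13.6), Cd207 (42.8 against 61.0, and 28.4 against 48.2), Osbp2 and Efna1. Cycling LC were deeper, with a median of 32305.5 and 31743 UMIs against 15974 and 15758, and no test was made of the difference.

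The genes with the most similar profile to each member were sought among 5202 genes over the 10 types with at least 20 cells in each control library, by Pearson's r of log2(UMIs per 10000 + 0.1). Ccser1 and Tbc1d4 were nearest to Cldn1 (r = 0.993 and 0.989), Tbc1d4 to Cd207 (0.973) and Ccser1 to Epcam (0.978). The pair Ltc4s, the leukotriene C4 synthase, and Atp8b1 lay near Osbp2 (0.991 and 0.992) and Mfge8 (0.987 and 0.988), with Arhgap24 (0.989) first for Mfge8, and Ltc4s was nearest to H2-M2 (0.984). Efna1 was most like Gm26812 (0.994) and P2rx2 (0.991), and Cdh1 most like Tom1l2 (0.954). These genes were highest in LC. Those nearest to Ctnnd2, in contrast, were highest in DETC (Carmil1 at 0.971, Abi3 at 0.967 and Tjp1). The profiles of Ctnnd2 and Cldn1 had r = 0.0521, those of Ctnnd2 and Cdh1 0.725. All these profiles include the UMIs read as background and the Cd207-positive cells of other types, whose part in r was not tested.

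Whether other junction genes follow the members in LC was asked with lists of related genes. UMIs were summed per library and type and LC compared with conventional type 2 dendritic cells (cDC2) and with macrophages of control skin by the quasi-likelihood test of edgeR, with p-values adjusted after Benjamini and Hochberg over 10892 genes. All types with at least 20 cells in each control library were fitted together, with the library as a block. They shared 1 estimate of the spread, so such p-values measure what is left between types and libraries of the same 2 skins. The spread between further animals is not covered. The macrophages compared included those at the Cd207 level of the LC gate, and the part of these cells in the differences was not tested. Of all genes tested, 19.6% were higher and 17.9% lower in LC than in cDC2, and 20% were higher and 17.9% lower than in macrophages. Of 7 tight junction genes tested, 5 were higher and 0 lower in LC in either comparison. Occludin (Ocln) stood at 1.23 and 1.16 UMIs per 10000 in LC and at 0.0294 and 0.0325 in cDC2, a log2 difference of 5.22 ± 0.35 (SE, edgeR adjusted p = 2.1e-09). The scaffold gene Tjp1 was higher by 4.70 ± 0.27 than in cDC2 and by 3.36 ± 0.24 than in macrophages, and the tricellular junction gene Marveld2 by 3.12 and 2.31.

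Of 10 adherens junction genes tested, 6 were higher and 0 lower in LC in either comparison. Afdn, which links nectins to actin, stood at 5.14 and 5.57 UMIs per 10000 in LC against 0.695 and 0.743 in cDC2 and 0.938 and 0.602 in macrophages. Plekha7 stood at 0.259 and 0.239 against 0.0782 and 0.0338 in macrophages. DETC (0.644 and 0.524) and γδT cells (0.459 and 0.539) held more Plekha7 than LC. Ctnnd1, the p120 catenin gene, was higher than in cDC2 by 2.05 ± 0.26 on the log2 scale, and Nectin1 was higher than in macrophages by 2.20 ± 0.26. The desmosome genes did not go together: of 5 tested, Pkp2 (0.145 and 0.153 in LC, 0 and 0.0244 in cDC2) and Pkp4 were higher in LC than in cDC2, Pkp3 was lower (0.00293 and 0.0124 against 0.153 and 0.122), and against macrophages 2 were higher, Pkp2 and Pkp4. Without control skin 1, Pkp2 did not pass against macrophages, and without control skin 2, Pkp4 did not. Pkp4 was highest in DETC, at 3.96 and 4.07 against 1.36 and 1.18 in LC. Dsp, the desmoplakin gene, stood at 0.00733 and 0.0108 in LC.

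Of the ephrin and Eph receptor genes tested, 1 of 5 was higher in LC than in cDC2 and 2 of 5 were higher than in macrophages. Epha2, a receptor that binds ephrin-A1, was higher in both, by 2.64 ± 0.28 and 2.16 ± 0.27 (edgeR adjusted p = 5.42e-07 and 3e-06). Among genes that act with Mfge8 or in the uptake of dying cells, 2 of 11 were higher and 5 lower in LC than in cDC2, and 2 were higher and 8 lower than in macrophages. Edil3, the closest relative of Mfge8, was higher than in cDC2 by 3.72 ± 0.35, at 2.57 and 3.62 UMIs per 10000 in LC against 0.206 and 0.296. Lower were the receptors Axl (-4.56 ± 0.36 against macrophages) and Cd36 (-4.81 ± 0.54 against macrophages and -4.14 ± 0.54 against cDC2) and the ligand gene Gas6 (-4.83 ± 0.52 against macrophages). The receptor gene Mertk was lower in both comparisons, at 0.00293 and 0.00927 in LC, 0.326 and 0.510 in macrophages and 0.0589 and 0.122 in cDC2.

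Of 9 nonclassical MHC class I genes, 1 was higher and 3 lower than in cDC2, and 1 higher and 4 lower than in macrophages. The higher one was H2-M5, from the same region as H2-M2, with 1.74 and 1.37 UMIs per 10000 in LC against 0.0471 and 0.0975 in cDC2 (4.31 ± 0.30 on the log2 scale, edgeR adjusted p = 6.23e-09) and 0.241 and 0.141 in macrophages. H2-T22 and H2-T23 were lower in both comparisons (by -1.17 and -0.58 against cDC2, and by -1.51 and -0.64 against macrophages). Without control skin 1, neither passed against cDC2, and H2-T23 did not pass against macrophages. Of the oxysterol-binding protein family, 0 of 9 tested passed against cDC2 and 3 were lower than in macrophages, Osbpl8 (-0.94 ± 0.16), Osbpl11 (-0.81 ± 0.20) and Osbpl3 (-0.75 ± 0.22), of which Osbpl3 did not pass without control skin 1 and Osbpl11 without control skin 2. Of the 18 further LC genes, 10 were higher and 3 lower than in cDC2 and 9 higher and 5 lower than in macrophages. The differences from cDC2 were led by Ltc4s (4.92 ± 0.25), Ly75 (4.36 ± 0.32) and Il1r2 (3.23 ± 0.31), all higher in LC. Those from macrophages were led by Axl, which is also in this list and was lower in LC (-4.56 ± 0.36). Ly75 (3.06 ± 0.28) and Ltc4s (3.03 ± 0.21) followed, both higher in LC. Cd74 is in this list and was also used in the gate.

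**Figure D3:**
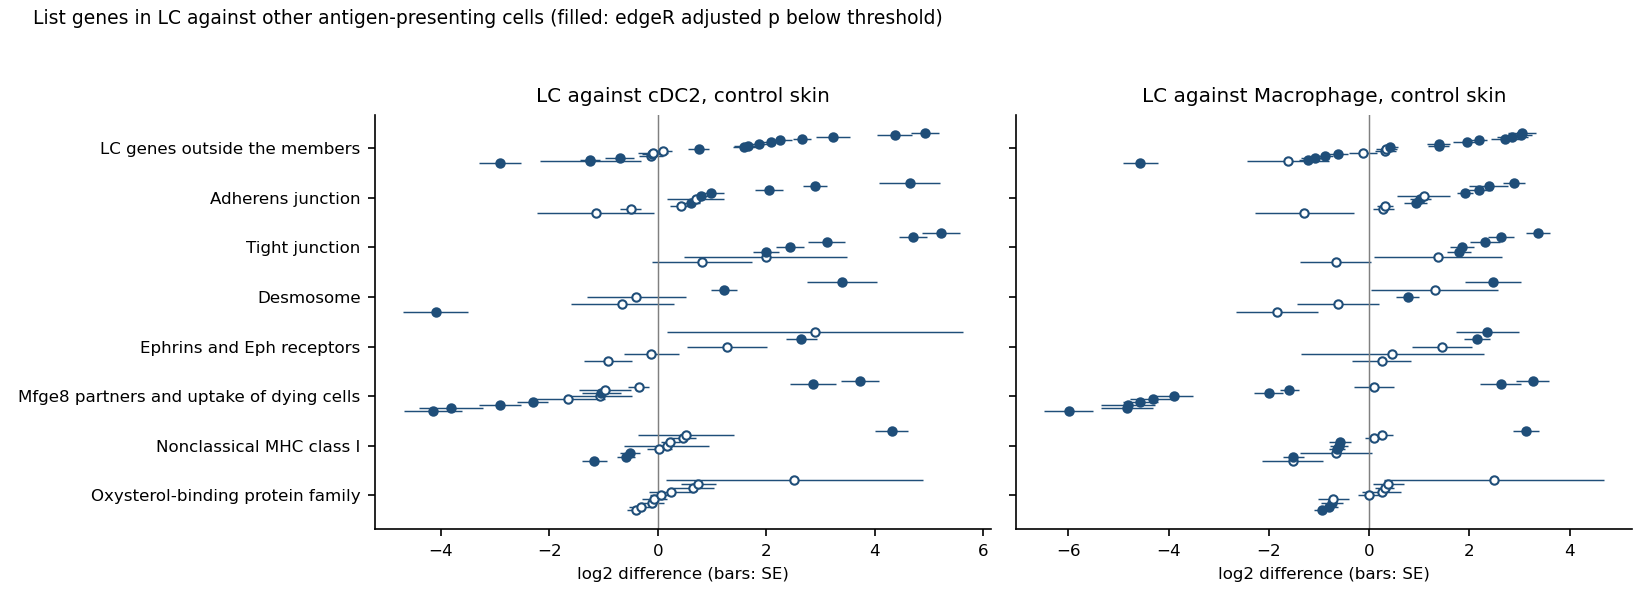
Log2 difference of each tested list gene in LC against cDC2 (left) and against macrophages (right) of control skin, with its SE, filled where edgeR's adjusted p was under 0.05. Filled points of the tight and adherens junction lists lie to the right of 0 in both panels, and those of the list on uptake of dying cells mostly to the left.

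Over all immune cells, the 9 members were lower in both skin tumors than in both control skins, as the choice of the genes required. Of 16067 genes tested, 27.5% had both tumors below both controls. Cd207 went from 15.03 and 10.6 UMIs per 10000 to 0.0113 and 0.151, and Cldn1 from 2.69 and 2.23 to 0.0147 and 0.0613. Epcam went from 1.57 and 1.24 to 0.0223 and 0.0499, Osbp2 from 1.01 and 0.965 to 0.0149 and 0.0265, and Efna1 from 0.242 and 0.274 to 0.00775 and 0.0167. Mfge8 went from 3.86 and 3.89 to 0.0628 and 0.230, and Ctnnd2 from 3.50 and 3.77 to 0.194 and 0.182. The ratio of control to tumor means was smallest for Cdh1 (0.860 and 0.840, then 0.0909 and 0.0840, 9.72-fold) and H2-M2 (4.73 and 3.15, then 0.437 and 0.446, 8.93-fold), and largest for Cd207 (157-fold). In sums over cells, fewer cells of a type and less RNA per cell cannot be told apart.

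Outside the LC gate, the members were again lower in both tumors, where 27% of 15650 tested genes had both tumors below both controls. The ratio was 90.7-fold for Cd207, 32.0-fold for Cldn1, 19.4-fold for Epcam, 19.3-fold for Ctnnd2 and 3.59-fold for H2-M2. With two-lineage cells also left out, the ratio of H2-M2 was 1.39-fold (0.575 and 0.569 in control skin, 0.437 and 0.387 in skin tumor) and that of Efna1 3.12-fold. The members were also summed over immune cells without any Cd207 UMI. Since Cd207 is one of the genes selected as lower in the tumors, this choice of cells took away more of the control cells than of the tumor cells, for example 24.6 and 18.1% of T cells in control skin and 0 and 0.524% in the tumors, so the values are given as a description. Ctnnd2 (3.27 and 3.71 in control, 0.195 and 0.161 in tumor), Cdh1 (0.578 and 0.548, 0.0906 and 0.0581) and Epcam (0.206 and 0.141, 0.0225 and 0.0268) were lower in the tumors by 19.6-fold, 7.57-fold and 7.04-fold. Cldn1 was 3.43-fold lower, Mfge8 1.88-fold and Osbp2 1.45-fold. Efna1 overlapped between the groups (0.00783 and 0.0181, 0.00781 and 0.0149). H2-M2 was higher in the tumors, with 0.435 and 0.385 against 0.0603 and 0.0593.

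**Figure D4:**
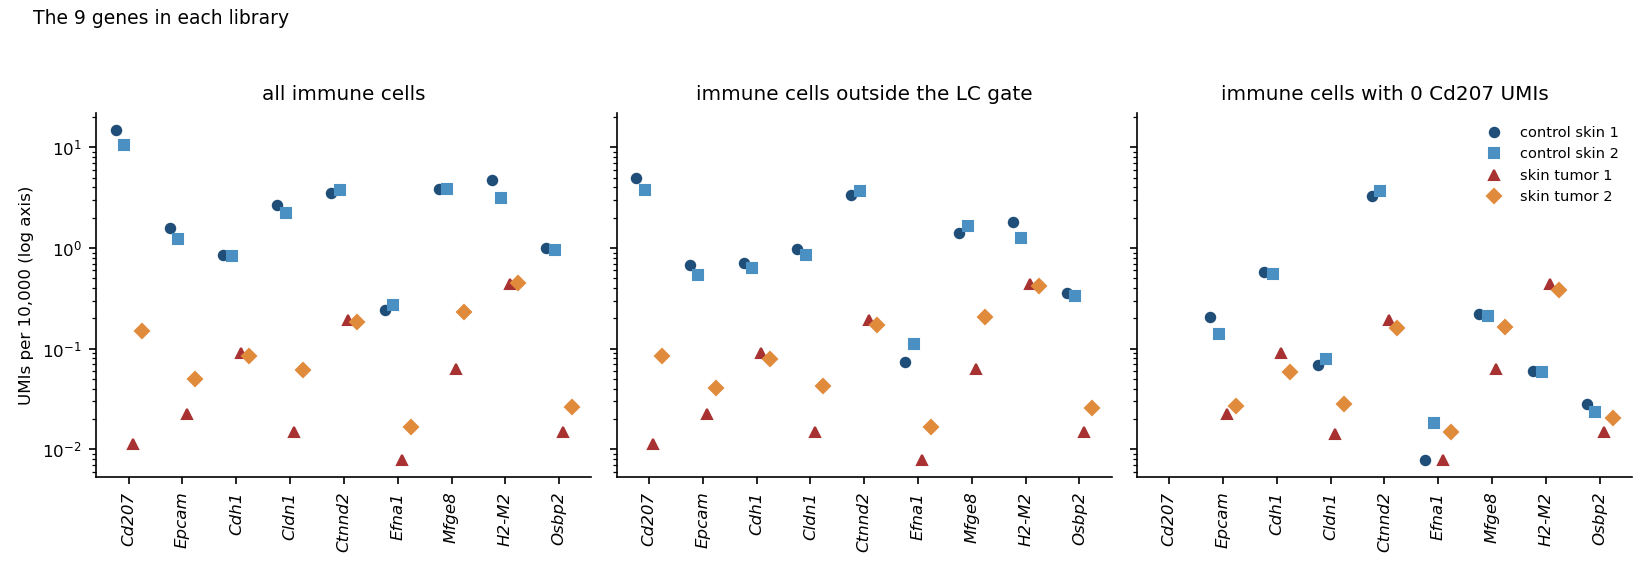
The 9 genes in each of the 4 libraries (UMIs per 10000, log axis), over all immune cells, outside the LC gate and in cells without a Cd207 UMI. Control points lie above tumor points for all genes in the first 2 panels. In the last panel Ctnnd2, Cdh1 and Epcam keep a gap, Efna1 overlaps and the H2-M2 points of the tumors, 0.435 and 0.385, lie above those of the control skins.

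In mDC (17 and 17 cells in control skin, 81 and 22 in the tumors), the sums rested on a few cells with Cd207. Mfge8 stood at 7.55 and 12.8 UMIs per 10000 in control skin and at 0.196 and 1.76 in the tumors. Without the cells at the Cd207 level of the LC gate (6 in each control skin, 0 in skin tumor 1 and 1 in skin tumor 2), it stood at 0.668 and 0.281 in control skin and at 0.196 and 0.0860 in the tumors. H2-M2 stood at 7.79 and 8.90 in control skin and at 0.876 and 1.59 in the tumors, and without those cells the groups overlapped, at 1.30 and 0 against 0.876 and 0.917. In cDC1 (31 and 48 cells in control skin, 123 and 26 in the tumors), Cd207 stood at 12.8 and 6.77 in control skin and at 0.0221 and 0 in the tumors. Epcam went from 2.72 and 1.21 to 0.0479 and 0.0437, and Cldn1 from 2.36 and 2.13 to 0.122 and 0.379. Ctnnd2 overlapped between the groups in cDC1.

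The 4 LC of skin tumor 2, 1 of them with only 1953 UMIs, held 46674 UMIs together, so they give a value of 1 library with counting error only. Their level was 42.4 UMIs per 10000 for Cd207 (exact Poisson interval 36.7 to 48.8), 6.00 for Epcam (3.99 to 8.67), 2.79 for Cdh1 (1.48 to 4.76), 12.2 for Cldn1 (9.25 to 15.8), 16.9 for Mfge8 (13.4 to 21.1) and 14.8 for H2-M2 (11.5 to 18.7). The intervals of Epcam, Cdh1, Cldn1, Mfge8 and H2-M2 held both control values, and that of Cd207, a gene the gate itself required, held the lower one. Single cells carried much of some sums. The cell with 15521 UMIs held 113 of the 198 Cd207, 32 of the 57 Cldn1 and 63 of the 79 Mfge8 UMIs, and another held 42 of the 69 H2-M2 UMIs. The intervals do not cover this spread between cells. Ctnnd2, at 7.93 (5.58 to 10.9), lay above both control values of 3.94 and 4.40. Osbp2, with 2 UMIs (0.429, interval 0.0519 to 1.55), lay below the control values of 3.89 and 4.27. Efna1 had 0 UMIs, which allows a level of up to 0.790 by the same interval, against 0.992 and 1.12 in control skin.

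In DETC, Ctnnd2 differed between the tumors. The 32 cells of the DETC gate in skin tumor 2 held 10.3 UMIs per 10000 (247 UMIs, 45.3% of the Ctnnd2 UMIs of that library), next to 7.80 and 8.64 in control skin. The 14 cells of skin tumor 1 held 0.303 (4 UMIs). Trdc, the constant gene of the delta chain, was also lower in the latter cells, at 7.87 against 15.9 in skin tumor 2 and 21.6 and 21.8 in control skin. Cdh1 showed the same order, with 0.227 (3 UMIs) in skin tumor 1, 0.750 in skin tumor 2 and 1.00 in both control skins. In skin tumor 1, 42.0% of the Ctnnd2 UMIs lay in cDC2, at 1.73 UMIs per 10000, above the 0.388 of skin tumor 2 and the 0.518 and 0.845 of control skin. Of the Cdh1 UMIs left, cDC2 held 36.9% in skin tumor 1 and 17.9% in skin tumor 2, at 0.708 and 0.336 UMIs per 10000 next to 0.501 and 0.483 in control skin, while macrophages held 11.4 and 38.2%, at 0.0188 and 0.0667. The macrophage value of skin tumor 2 rested on few cells, as 24 of 651 had a Cdh1 UMI. The 60 of these macrophages with at least 3 H2-M2 UMIs held Cdh1 at 0.345. The 59 such cells without a Cd207 UMI held 0.0119.

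H2-M2 was the member with most UMIs left, 2816 and 1331 in the tumors. Of these, 89.7 and 53.04% lay in macrophages, where the level was 0.708 (1820 cells) and 0.491 (651 cells) UMIs per 10000. The 5% of macrophages with the most H2-M2 UMIs held 77.8 and 75.5% of them. A UMI was found in 277 and 108 macrophages. The 180 and 60 macrophages with at least 3 UMIs held 95.1 and 91.2% of the macrophage UMIs, so that the gene was carried by a small part of the cells. These cells held the macrophage gene C1qa at 35.9 and 26.9 UMIs per 10000, against 30.6 and 21.1 in macrophages without H2-M2, and hardly any Cd207 (0.0358 and 0.0409). In the same tumor cells Cldn1 stood at 0 and 0.0876, and Mfge8 at 0.0253 and 0.315. The tumor macrophages with at least 3 H2-M2 UMIs were deeper, with a median of 25389.5 and 26076.5 UMIs against 17877 and 19443, and the part of depth in the choice of these cells was not tested. In control skin, by contrast, the 13 and 20 macrophages with at least 3 H2-M2 UMIs held 28.0 and 22.6 of Cd207 and 4.77 and 6.03 of Cldn1. In the 644 macrophages of skin tumor 2 without a Cd207 UMI, the 59 cells with at least 3 H2-M2 UMIs held 3.54 of H2-M2, 0.0894 of Mfge8 and 0 of Cldn1 and Epcam. In skin tumor 2, two-lineage cells held a further 17.0% of the H2-M2 UMIs and ungated cells 16.1%.

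**Figure D5:**
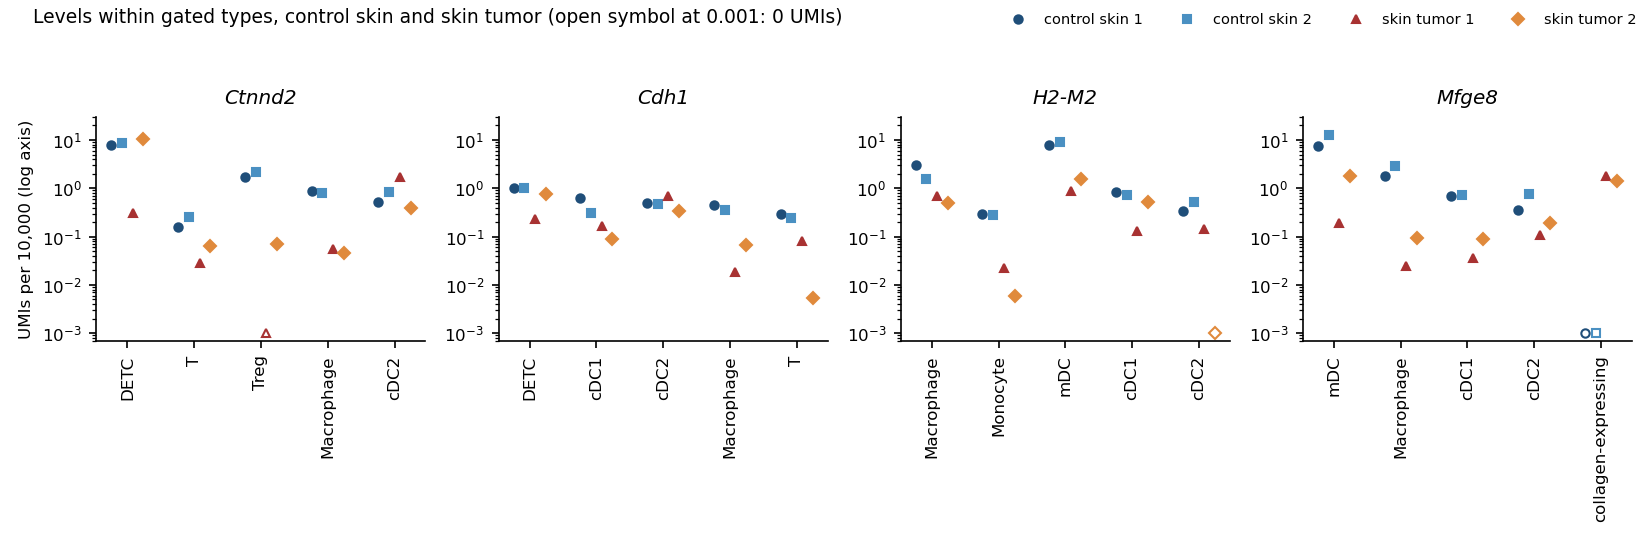
Levels of Ctnnd2, Cdh1, H2-M2 and Mfge8 (UMIs per 10000, log axis) in the gated types that held much of each gene, 1 point per library, with open symbols for 0 UMIs. In DETC, the Ctnnd2 point of skin tumor 2 (10.3) lies beside those of the control skins and that of skin tumor 1 (0.303) far below.

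The related genes were tested between tumor and control over all immune cells. Of the 16067 genes tested, 12.1% were higher and 15.7% lower in the tumors by edgeR (2 libraries against 2). Of 10 tight junction genes, 6 were lower and 0 higher, of 14 adherens junction genes 6 and 2, of 7 desmosome genes 4 and 0, of 15 ephrin and Eph genes 5 and 1, and of 18 LC genes outside the members 10 and 3. Tjp1 went from 2.87 and 2.73 to 0.0560 and 0.177 UMIs per 10000 (log2 difference -4.76 ± 0.62, edgeR adjusted p = 0.0104), Ocln from 0.307 and 0.263 to 0.0248 and 0.0258 (-3.66 ± 0.17), and Dsp from 0.305 and 0.2998 to 0.00651 and 0.00937 (-5.45 ± 0.25). These genes had different sources in control skin. Among immune types Ocln was highest in LC, and keratinocyte-like cells held a similar 1.07 and 1.31. Tjp1 was shared by LC (5.45 and 4.59) and DETC (4.91 and 5.59). Dsp was at 12.4 and 12.1 in keratinocyte-like cells, whose gate uses it, 1.00 and 1.00 in DETC and near 0 in LC. The DETC of control skin held the same number of Dsp and Cdh1 UMIs, 734 and 825, in different cells.

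Also lower were the adherens junction genes Plekha7 (-2.94 ± 0.23) and Afdn (-2.17 ± 0.16). From the list of LC genes, Ltc4s (-3.18 ± 0.22) and Itgae (-3.47 ± 0.19) were lower. In control skin Itgae, the integrin subunit that binds E-cadherin, was highest in regulatory T cells (5.89 and 6.41) and not in LC. Group 2 innate lymphoid cells (5.46 and 5.44) and γδT cells (4.18 and 3.76) came next. Plekha7 was highest in keratinocyte-like cells (1.56 and 0.942) and, among immune types, in DETC (0.644 and 0.524). Lower too were H2-M5 (0.489 and 0.338 to 0.00062 and 0.00603, -7.44 ± 0.84), Timd4, a phosphatidylserine receptor (-2.88 ± 0.23), Osbpl3 (-1.85 ± 0.18), Osbpl5 (-1.21 ± 0.30), Cldn7 (-3.55 ± 0.51), Efnb3 (-3.29 ± 0.76) and Ephb6 (-2.50 ± 0.51). Dsg2 stood at 0.0102 and 0.00844 in control skin and 0.000465 and 0 in the tumors, and Pkp1 at 0.00403 and 0.00323, then 0.000155 and 0. Of 12 genes around Mfge8 and the uptake of dying cells, 4 passed as higher in the tumors, 1 as lower and 7 did not pass. Their median log2 difference was -0.13, against 0.057 over all genes. Axl went from 0.133 and 0.211 to 1.44 and 1.33 (2.83 ± 0.27) and Mertk from 0.0494 and 0.142 to 1.09 and 0.597 (2.96 ± 0.60). In control skin both were highest in macrophages, Axl at 1.19 and 0.918 and Mertk at 0.326 and 0.510. The macrophage gate held 71 and 183 cells in control skin and 1820 and 651 in the tumors. The part of their number in these sums was not tested. Of 11 nonclassical MHC class I genes, 5 were higher and 1, H2-M5, lower, and Cd1d1 (1.68 ± 0.29) and H2-Q10 (1.38 ± 0.33) led the former. Of 11 oxysterol-binding protein genes, 1 (Osbpl1a, 0.93 ± 0.21) was higher and 2 lower. Cdh2, the N-cadherin gene (2.47 ± 0.49), and Ephb4 (2.81 ± 0.54) were higher from very low levels.

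Of the 50 list genes that passed, 26 passed without control skin 1, 31 without control skin 2 and 36 without skin tumor 1. Cd1d1, Cdh2, Cldn7, Efnb3, Ephb4, Ephb6, H2-Q10, Osbpl1a, Osbpl5 and Pkp1 passed neither without control skin 1 nor without control skin 2. Dsg2 did not pass without control skin 1, and Mertk, Ephb6, Osbpl5, H2-Q10 and Osbpl1a did not pass without skin tumor 1. Outside the LC gate, where 10.9% of genes were higher and 15.3% lower, 44 list genes passed. They included 5 of 9 tight junction genes, 3 of 13 adherens junction genes, 4 of 7 desmosome genes, 5 of 15 ephrin and Eph genes and 8 of 18 LC genes as lower, and 3 adherens junction genes, 1 ephrin or Eph gene and 4 LC genes as higher. Of the 12 genes around Mfge8, 4 were higher and 1 lower, of 11 MHC genes 3 and 1, and of 11 oxysterol-binding protein genes 1 and 2. Tjp1 (-4.54 ± 0.59), Dsp (-5.72 ± 0.25), Plekha7 (-2.97 ± 0.23) and Itgae (-3.68 ± 0.20) changed by about as much as over all immune cells. For Ocln (-2.24 ± 0.23), H2-M5 (-6.30 ± 0.85) and Timd4 (-1.97 ± 0.25) the value was nearer to 0 than over all immune cells, a difference that was not tested. Nectin4 (2.06 ± 0.48) and H2-M3 (0.85 ± 0.15) were higher. Without control skin 1, 19 of these 44 passed, without control skin 2 25 and without skin tumor 1 33, and neither Nectin4 nor H2-M3 passed without control skin 1 or 2.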

How the data were processed

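The deposited values were UMI counts per gene and cell, made by the authors with Cell Ranger 7.1.0 (per the submitters' processing notes) on the mouse build mm10, with 31053 genes and no further normalisation. The 4 matrices held 2258 to 5176 cells and 34893543 to 73904272 UMIs. Cells with at least 1000 UMIs, at least 100 genes and at most 15% mitochondrial UMIs, with a ratio of log genes to log UMIs of at least 0.8, were kept, and 40 to 229 doublets per library, found against simulated doublets, were removed. Cell types were set by marker gates, and keratinocyte-like and collagen-expressing cells were left out of the immune cells. A level is the sum of a gene's UMIs over the sum of all UMIs of the cells, per 10000. Intervals are exact at 95% and cover counting error only, and a count of 0 was taken to allow up to 3 counts. Shares of cells were also taken after thinning cells to 1000 UMIs.

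Lists of related genes were tested on counts summed per library and type with edgeR 4.0.16 (R 4.3.3) by its quasi-likelihood test, with Benjamini-Hochberg adjustment over all genes tested and a threshold of 0.05. Tumor was compared with control by 2 libraries against 2, and LC with other types of the same 2 control libraries with the library as a block. Alternatives were DESeq2 1.42.0, its size factors within edgeR, no filter on low counts, other sets of cells, LC set by Epcam or by clusters built without the 9 genes, and leaving out each library. On simulated data with a log2 change of 2 in 200 genes, 79.5% were recovered over all immune cells (16067 genes) and 92.5% in LC against cDC2 (10892 genes). An exact permutation test of 2 against 2 libraries cannot go below 0.333, so none was used. The genes, lists, gates and tests were chosen with earlier results of these data known. List genes named in the text are up to 3 per list and comparison with the largest log2 difference among those that passed without overlap of the libraries, together with the 9 genes and the 3 genes of most similar profile to each. The replicate numbers come from the labels, which do not say that they pair control with tumor. Protein sequences were not used here, and 1 list gene that the rule names and the alleles of the tumor line are not reported here.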

Additional observations from a re-analysis of the deposited data

Results flagged for a closer look

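Cells with collagen genes, 18 in skin tumor 1 and 66 in skin tumor 2, lay outside the immune cells and so outside the comparisons. They held Mfge8 at 1.80 and 1.43 UMIs per 10000, Efna1 at 0.218 and 0.127 and Osbp2 at 0.0990 and 0.175. The 3 and 7 such cells of control skin had 0 UMIs of each, which allows levels of up to 0.9498 and 1.05. The tumor values of Efna1 and Osbp2 lie below these limits, so no difference from control skin was detectable for them at this depth.

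In gated NK cells, Mfge8 stood at 0 and 0 UMIs per 10000 in control skin (11 and 12 cells) and at 0.103 and 0.0470 in the tumors (68 and 41 cells, 6 and 2 UMIs), whereas in the other 11 gated types with enough cells the tumor values were below the control values. A count of 0 allows up to 0.311 and 0.194 in the control NK cells, above both tumor values, so the direction in NK cells was not detectable at this depth, and the difference from the other types was not tested.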

How the results depend on the processing

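Of the list genes compared between tumor and control, 50 passed over all immune cells and 44 outside the LC gate. Leaving out 1 library gave 26 to 59 and 19 to 58, with the lowest values without control skin 1 and 32 and 27 without control skin 2. Leaving out a library leaves its group with 1 sample, assumed to vary like the other group, and the cause of the changes beyond the smaller number of samples was not tested. The deviations of libraries with the same replicate number had a correlation of 0.01695 over 16067 genes. With 2 libraries per group this cannot tell whether the numbers pair control with tumor. The main comparison of tumor with control used them only as names. With a replicate block, 44 and 31 list genes passed, and without the block of LC and other cells by library 36 passed against cDC2 and 43 against macrophages, next to 38 and 46 with it. DESeq2 called 56, 51, 39 and 44. No named gene turned its direction in any alternative: of 809 alternative values of named list genes, 741 kept their side of the threshold and 68 no longer passed.

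Over all immune cells, the 9 members were lower in both tumors in each alternative run. The genes were selected on this difference in the same libraries, so this is a description. The number of them highest in LC among the gated immune types was 8, and 7 with all deposited cells. Of 54 alternative levels in LC, 51 moved by less than 1 SD between libraries, as did 61 of 63 log2 ratios of tumor to control. A mean of 2 control skins always lies within 1 SD of either of them. Runs without a control skin could therefore not move a level or a share in LC further. The exceptions among the ratios were Cdh1 with keratinocyte-like and collagen-expressing cells kept in (-3.62) and Cd207 without skin tumor 2 (-10.14). The share of UMIs in LC depended on the cells kept, with 22 of 54 values outside 1 SD: with all deposited cells it was 59.0% for Cd207 and 52.5% for Epcam. Depth limits the values of the 4 LC and of DETC in the tumors.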

Other observations

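Genes that went with H2-M2 in tumor macrophages were listed after its values were seen, so the following levels are descriptions. Among the 40 genes with the highest ratio between macrophages with at least 3 H2-M2 UMIs and those without any, 9 were shared by both tumors. Nos2, the inducible nitric oxide synthase gene, stood at 0.702 against 0.119 UMIs per 10000 in skin tumor 1 and at 0.993 against 0.144 in skin tumor 2. Mmp12, the macrophage elastase gene, stood at 8.67 against 3.26 and at 8.97 against 4.51, and Pdcd1lg2, which encodes the PD-1 ligand PD-L2, at 2.35 against 0.844 and at 2.57 against 1.34. The others were Mucl1, Lyz1, Gpnmb, Dnase1l3, Fabp5 and Procr. The cells with H2-M2 were deeper in UMIs, and the part of depth was not tested.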
